A study of Mus musculus with 4 samples.

Results

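The genes described here make, sense, move and export cholesterol. They are 29 mouse genes chosen by name, and each was read from every probe set that the array annotation gives to its symbol alone. Of these genes 27 had such probe sets, 58 in all out of 45037 on the array and out of 34945 that carry 1 symbol. Acat2 and Nr1h2 had none of their own and are not analysed here. By role they were 17 synthesis enzymes, 4 genes of the Srebf2 control loop (Insig1, Srebf2, Scap and Stard4), 4 genes of the Nr1h side (Abca1, Abcg1, Nr1h3 and Srebf1), and Insig2 and Osbp2, which were put on neither side. The enzymes and the control loop together are called the Srebf2 side.

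The study asked what contact between liver macrophages and tumour cells does to gene expression, and whether this depends on Dectin-2, a receptor for fungal sugars encoded by Clec4n. It used Kupffer cells, macrophages that line the sinusoids of the liver, together with SL4, a colon carcinoma line of the mouse. Each array held RNA of 100000 Kupffer cells and 100000 SL4 cells after 8 hours of culture, and the 4 groups had 1 array each. In the co-culture groups both cell types shared a dish, and in the separate groups they were kept apart and their RNA was mixed afterwards.

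The Kupffer cells came from female C57BL/6 mice aged 12 weeks, either wild type or Clec4n-/- (called knockout here), and were sorted as CD45+ CD11b+ F4/80+ cells. SL4, also of C57BL/6 origin, was the same line in all groups, so only the Kupffer cells differed in genotype. All groups were kept in medium with serum, which itself carries cholesterol. The labels do not say how many mice gave cells, whether mice were pooled, or whether both separate arrays received RNA of the same SL4 culture.

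Cells hold their cholesterol steady with a pair of opposed controls. When sterol in the endoplasmic reticulum is low, Scap carries the SREBP-2 precursor, the product of Srebf2, to the Golgi for cleavage, and the freed factor switches on the synthesis enzymes and Insig1. When sterol is plentiful, Insig proteins hold Scap back, while oxysterols activate the LXR receptors encoded by the Nr1h genes, which switch on the exporters Abca1 and Abcg1 and also Srebf1. Macrophages rely on both controls, because they take in the lipid of the cells they engulf.

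The stretches upstream of 4 of these genes are shown because SREBP-2 works at such promoters together with the factors NF-Y and Sp1. Hmgcs1 is shown as the first enzyme of the list, Cyp51 as the enzyme that was lower in co-culture in both genotypes, Insig1 as the feedback gene, and Osbp2 as the gene with the highest co-culture ratio of those listed. Each is the 250 bases before the transcription start, 5′ to 3′ on the gene's strand, from RefSeq on GRCm38.p6: Hmgcs1 at chr13:119690101-119690350 (+), Cyp51 at chr5:4104698-4104947 (-), Insig1 at chr5:28071162-28071411 (+), and Osbp2 at chr11:3863904-3864153 (-), the first of its 3 listed starts. Capitals mark every match, on either strand, to a searched motif.
Hmgcs1: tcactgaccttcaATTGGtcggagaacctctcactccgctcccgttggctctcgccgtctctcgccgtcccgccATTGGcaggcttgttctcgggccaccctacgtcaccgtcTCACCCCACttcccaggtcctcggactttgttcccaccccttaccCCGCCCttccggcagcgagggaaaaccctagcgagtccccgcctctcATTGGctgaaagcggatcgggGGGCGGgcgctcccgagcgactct
Cyp51: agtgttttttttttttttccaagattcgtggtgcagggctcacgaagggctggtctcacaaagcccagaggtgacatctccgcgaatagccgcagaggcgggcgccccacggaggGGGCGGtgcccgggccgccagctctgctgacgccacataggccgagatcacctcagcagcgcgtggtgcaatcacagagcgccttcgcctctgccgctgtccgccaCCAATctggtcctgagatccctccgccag
Insig1: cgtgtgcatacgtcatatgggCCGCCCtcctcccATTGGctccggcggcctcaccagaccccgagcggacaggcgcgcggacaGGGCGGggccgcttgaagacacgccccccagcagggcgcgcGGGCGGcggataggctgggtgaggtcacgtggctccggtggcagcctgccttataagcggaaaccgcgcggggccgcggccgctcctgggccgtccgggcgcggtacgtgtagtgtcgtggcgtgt
Osbp2: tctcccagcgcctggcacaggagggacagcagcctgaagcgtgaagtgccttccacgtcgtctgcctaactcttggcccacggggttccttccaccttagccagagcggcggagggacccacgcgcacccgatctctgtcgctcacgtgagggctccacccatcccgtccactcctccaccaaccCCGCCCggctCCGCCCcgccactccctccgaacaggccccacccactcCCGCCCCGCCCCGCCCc

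The motifs searched, on both strands, were the SREBP element TCACNCCAC, its shorter core CACCCCAC, the NF-Y box CCAAT, the Sp1 box GGGCGG and the NR1H element, a direct repeat of AGGTCA with a spacer of 4 bases. The core can lie inside the longer element, as it does in Hmgcs1. Windows ran from 250 bases before to 50 bases after a start. There were 35 of them for 24 of the listed genes, Acat2 and Nr1h2 included, and 32851 over all genes. No window was given for Fdps, Fdft1, Sqle, Stard4 and Abcg1.

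Hmgcs1 alone among these genes held the SREBP element, beginning 137 bases before its start. That element was present in 1.24% of all windows. The shorter core was present in 2.87% of all windows, and among these genes in Hmgcs1 and Acat2. A CCAAT box was found in 14 of the 15 enzyme genes with a window (93.3%). It was found in 41.1% of all genes with a window and in 43.8% of those above the floor defined below in all 4 arrays.

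The NF-Y box was rarer on the other side, where Srebf1 alone of the 4 Nr1h-side genes with a window had one. A GGGCGG box lay in 14 of 15 enzyme genes (93.3%). It lay in 38.2% of all genes with a window and in 72.1% of the genes above the floor in all arrays. The NR1H element was found in 0 of the 35 windows and in 0.0152% of all windows. A match describes the letters only, and no match says only that those letters are not in this window.

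**Figure D1:**
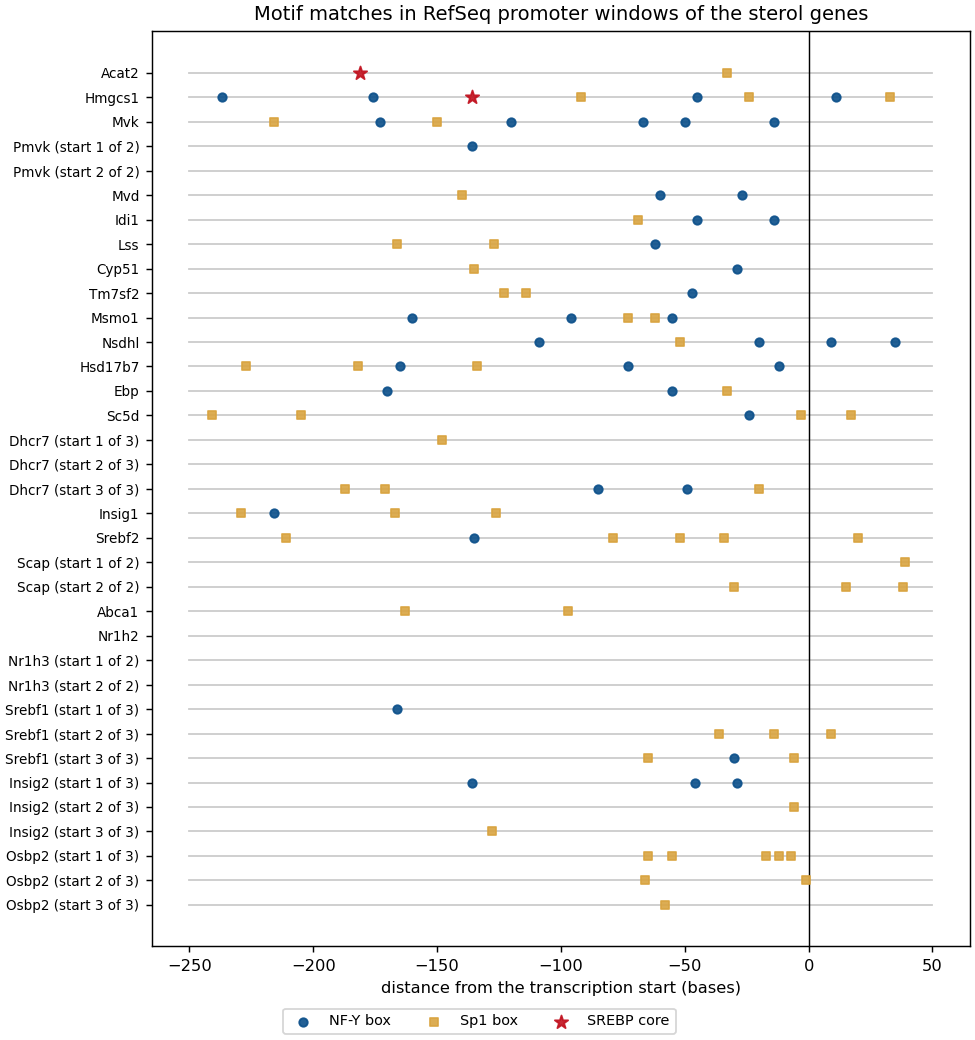
Positions of 3 of the searched motifs, in bases from the transcription start (horizontal axis), in the promoter window of each sterol gene that had one (vertical axis). Circles are the NF-Y box, squares the Sp1 box and stars the shorter SREBP core, each drawn at its first base, and each line is 1 window. Stars appear in Hmgcs1 and Acat2, and circles in 14 of 15 enzyme genes, with Acat2 the exception.

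The values are microarray signals on a linear scale, which the authors scaled to a common trimmed mean per array. Signals at or under 76.1, the middle value over every probe set and array, were treated as lying at a floor. Ratios are log2 of co-culture over separate culture, from the gene's brightest probe set. Where the dimmer array lay at the floor the ratio is a bound. Between 10117 and 10187 of 18193 genes per array lay above the floor. Over genes, the log2 ratio of knockout to wild type had an SD of 0.23 in separate culture and of 0.23 in co-culture, which is the only gauge here of how far single arrays scatter, and it includes any effect of genotype. With 1 array a group the number of arrays limits the precision, and a ratio within a genotype has no replicate check.

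Clec4n read between 8.19 and 17.6 on its brighter probe set, under the floor in all 4 arrays, so the arrays do not check the genotype labels. Of 23 macrophage markers 11 were above the floor in at least 1 array and 12 in none. Cd5l, Cd68, C1qb and Csf1r were above it in all 4 arrays, Cd5l reading 125 to 195. Clec4f, Timd4 and Vsig4 were under it in all 4. So were Ptprc, Itgam and Adgre1, the genes of the sorting markers CD45, CD11b and F4/80. Of 16 epithelial markers 13 were under it in all arrays, while 13 of 15 mesenchymal markers were above it in at least 1. In such bulk samples fewer cells of a type and less RNA per cell cannot be told apart.

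Of the 58 probe sets, 38 were above the floor in all 4 arrays and 15 in none. By gene, 23 of 27 were above it in all arrays, Nr1h3 in 3 arrays and Abca1 in 1. The enzyme gene Tm7sf2 and the exporter gene Abcg1 were above it in none. Ratios could thus be taken for 24 genes in wild type and 25 in knockout, 20 of them on the Srebf2 side. The plot of signals sets the 4 arrays side by side.

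**Figure D2:**
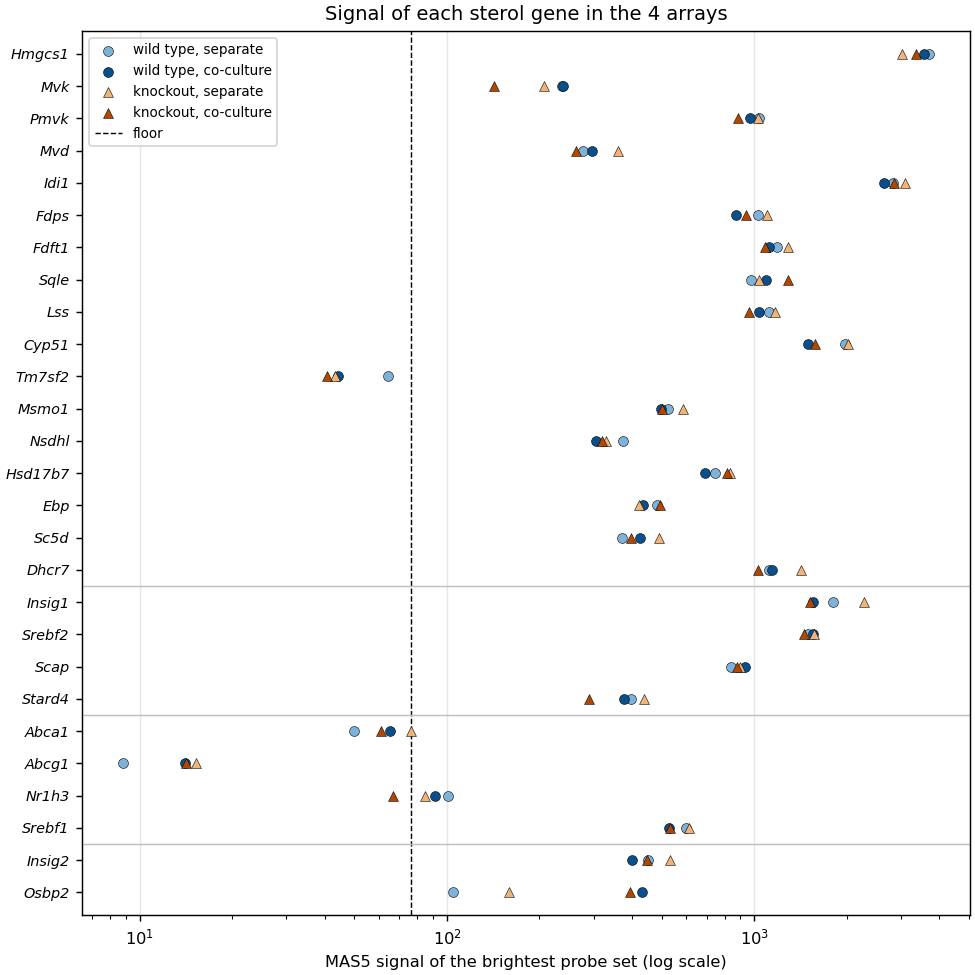
Signal of the brightest probe set of each sterol gene (vertical axis) in the 4 arrays, on a logarithmic horizontal axis. Each symbol is 1 array, and the line marks the floor of 76.1. The symbols of most genes lie close together, those of Osbp2 split by culture, and Tm7sf2 and Abcg1 lie under the floor in all arrays.

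Most measured genes of the list had similar signals in both cultures. Osbp2, an oxysterol-binding protein also called ORP4, was higher in co-culture in both genotypes. The synthesis enzymes leaned slightly lower, with a median log2 ratio of -0.09 in wild type and -0.23 in knockout, against -0.02 over all measured genes in each. With the median over a gene's probe sets in place of the brightest one, the knockout median was -0.12. The Nr1h side had a median of -0.16 over 2 measured genes, Nr1h3 and Srebf1, in wild type and of -0.16 over 3 in knockout. Its knockout median rests on bounds for Abca1 and Nr1h3 and was -0.32 with no floor. The exporter genes Abca1 and Abcg1 were not measured in wild type. Whether the Nr1h side leaned with or against the enzymes therefore cannot be said. None of the listed genes passed the test described below.

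Osbp2 read 104 in wild-type separate culture, 431 in wild-type co-culture, 159 in knockout separate culture and 395 in knockout co-culture. Both co-culture arrays were above both separate arrays. The ratio was 4.14-fold in the wild-type pair and 2.48-fold in the knockout pair. It was the 1 listed gene at least 2-fold higher in each genotype, where 0.701% of all measured genes were so in wild type, 0.67% in knockout and 0.421% in both.

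The other Osbp2 probe set read 62.0, 185, 33.4 and 205 in the same order. Its separate arrays were both under the floor and its co-culture arrays both above it. Co-culture was therefore at least 2.43-fold higher in wild type and at least 2.69-fold higher in knockout on that probe set. The 2 probe sets share the gene and the RNA and are no replicates of the cultures.

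Markers of the cell types were set beside these values. The summed signal of the macrophage markers was 2207 in wild-type separate culture, 2771 in wild-type co-culture, 2639 in knockout separate culture and 2667 in knockout co-culture. Of the 11 measured, 9 were above a ratio of 0 in wild type, with a median of 0.37 and 46.7% of all genes above 0. In knockout 8 were, with a median of 0.07 and 47.0% of all genes above 0. In both genotypes 6 of 11 were above 0, where 28.6% of all genes were. Limma called 0 of 11, where it called 0.113% of all genes lower and 0.31% higher. At an unadjusted limma p under 0.05, 3 were higher and 0 lower, where 17.1% of all genes passed in either direction. Mesenchymal markers summed to 40267 in separate culture and 35819 in co-culture in wild type, and to 36851 and 33893 in knockout. Of the 12 measured in both genotypes, 7 were lower in each past the threshold of 0.32 used below, where 5.58% of all genes were. Of 8 hepatocyte markers on the array 5 were above the floor in at least 1 array, Alb reading 324 to 347. Of these 5, 4 were below 0 in both genotypes, where 35.2% of all genes were. Past the threshold 2 were lower in both, where 5.58% of all genes were. The part of macrophage, mesenchymal or hepatocyte RNA in the results on the sterol genes was not tested.

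A gene was counted as lower or higher in co-culture where its log2 ratio passed 0.32 in size. In wild type 1 of 24 measured sterol genes was lower by this rule, which was Cyp51, and 11.8% of all measured genes were lower. Osbp2 was the 1 gene higher, where 9.93% of all measured genes were. In knockout 6 of 25 were lower (Mvk, Mvd, Cyp51, Dhcr7, Insig1 and Stard4), against 13.7% of all, and 1 was higher, against 7.82%. Cyp51 was the 1 gene lower and Osbp2 the 1 gene higher in both genotypes, where 5.58% of all genes were lower and 3.46% higher in both. With arrays set to a common median 0 were lower in both, the Cyp51 ratio being -0.40 in wild type and -0.30 in knockout. With the median over probe sets 2 were, Cyp51 and Stard4.

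Small shifts were mostly downward. In wild type 16 of 24 sterol genes had a ratio below 0, where 53.3% of all measured genes did. In knockout it was 21 of 25 (17 to 21 over the alternatives), against 53% of all genes, and in both genotypes 14 of 24, against 35.2%. The members were chosen with such a shift in knockout already known, so these shares describe it and do not support it.

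**Figure D3:**
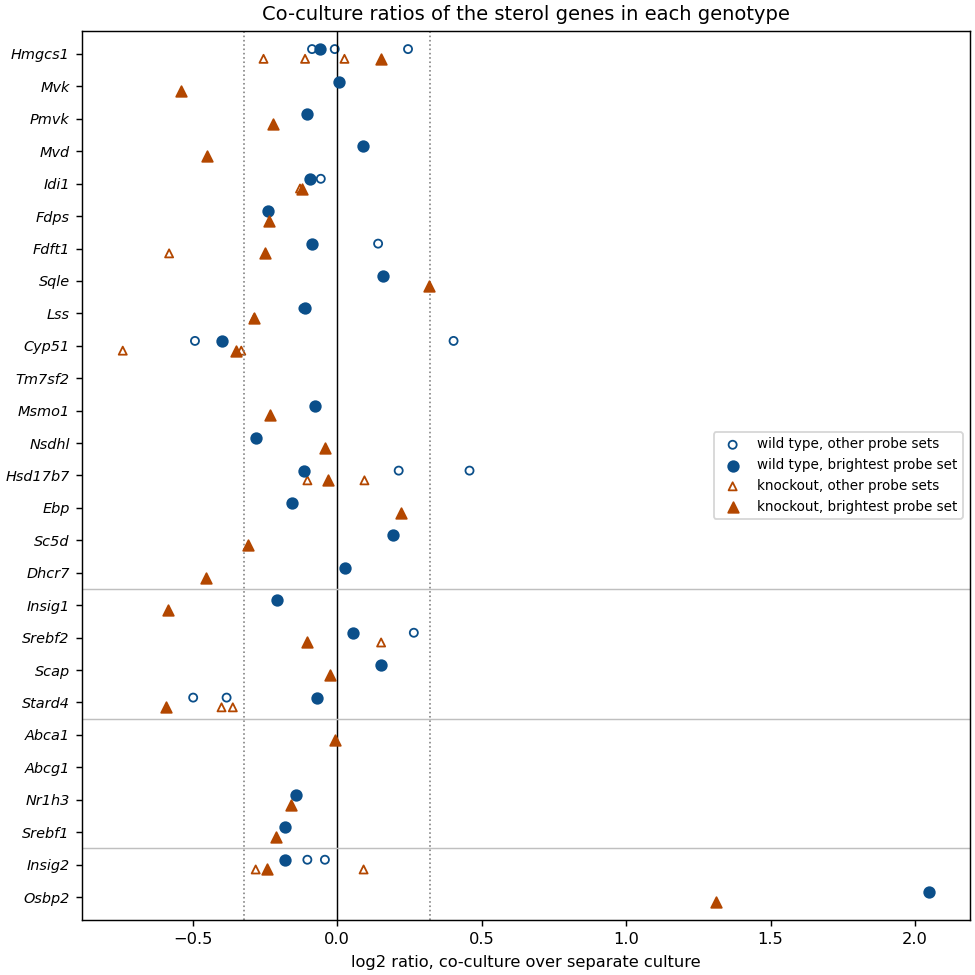
Log2 ratio of co-culture over separate culture (horizontal axis) for each sterol gene (vertical axis) in wild type and in knockout. Large symbols are the brightest probe set and small ones other probe sets. Osbp2 lies at 2.05 and 1.31, and on the brightest probe set all other measured genes lie between -0.59 and 0.32.

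The first steps of the pathway build isoprenoid units from acetyl-CoA. Hmgcs1, which makes HMG-CoA, read 3709.9 in wild-type separate culture, 3557 in wild-type co-culture, 3034 in knockout separate culture and 3368 in knockout co-culture. Its ratios of -0.06 and 0.15 had opposite signs, and the genotypes differed more in separate culture than the cultures did. Its 3 other probe sets above the floor had ratios between -0.25 and 0.25.

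Mvk, mevalonate kinase, read 237 and 238 in wild type but 206 and 142 in knockout, separate culture first. Only the knockout co-culture array was low, giving ratios of 0.01 and -0.54. The other Mvk probe set did not repeat this. It read 123, 86.1, 70.04 and 99.97, with ratios of -0.51 and at least 0.39.

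Pmvk, phosphomevalonate kinase, the next step, read 1038, 967, 1029.6 and 882, in the order wild-type separate, wild-type co-culture, knockout separate and knockout co-culture, which is kept for all 4-value series that follow. Mvd, which decarboxylates mevalonate diphosphate, read 278, 296, 360.0 and 263. Mvd stood out by a high knockout separate array, so its ratio was 0.09 in wild type and -0.45 in knockout, while the ratios of Pmvk were -0.10 and -0.22. Mvd's other probe set had ratios of at least 0.32 and of -0.07.

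Idi1, the isomerase of isopentenyl diphosphate, read 2821, 2644, 3100.0 and 2852. Fdps, farnesyl diphosphate synthase, read 1029, 872, 1103 and 937. Both were lower in co-culture than in separate culture in each genotype, Idi1 by 0.09 and 0.12 and Fdps by 0.24 and 0.23 on the log2 scale. Neither passed the 0.32 threshold.

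The next enzymes make and close the sterol skeleton. Fdft1, squalene synthase, read 1183, 1115, 1292 and 1086. Sqle, squalene epoxidase, a rate-controlling step, read 975, 1089, 1034 and 1288.5. Sqle thus went against most of the pathway: both co-culture arrays were above both separate arrays, with ratios of 0.16 and 0.32, the latter just under the threshold.

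Fdft1 had ratios of -0.09 and -0.25, and its other measured probe set 0.14 and -0.58. Lss, lanosterol synthase, read 1120.1, 1036, 1170.4 and 959. Both of its measured probe sets were lower in co-culture in each genotype, with ratios of -0.11 and -0.29 on the brighter and -0.12 and -0.29 on the other.

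Cyp51, which removes the 14-alpha methyl group of lanosterol, was the enzyme with the clearest culture difference. Its brightest probe set read 1979, 1500.5, 2013 and 1579.5. Both separate arrays were above both co-culture arrays, and the genotypes were close within each culture. The ratios were -0.40 and -0.35.

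A second Cyp51 probe set read 305, 217, 321 and 192 and gave ratios of -0.49 and -0.74 in the same direction. The remaining one read 114, 150.5, 197 and 157. It did not follow, since its wild-type ratio was 0.40 and its knockout ratio -0.33.

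The late enzymes turn lanosterol-derived sterols into cholesterol. Msmo1, the C4 methyl sterol oxidase, read 523, 496, 587 and 500.1, and Nsdhl, which acts with it, read 373, 306, 329 and 319.7. Hsd17b7, the keto-steroid reductase of the same complex, read 747, 689.8, 835 and 816. All 3 had ratios below 0 in both genotypes, between -0.28 and -0.03, but with quantile normalization or a common median Nsdhl and Hsd17b7 turned to between 0.01 and 0.02 in knockout. The 2 dimmer measured Hsd17b7 probe sets had ratios between -0.10 and 0.46, so the direction of this gene depends on the probe set.

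Ebp, the sterol isomerase, read 483, 433, 423 and 493, which gave ratios of -0.15 and 0.22. Sc5d, the sterol C5 desaturase, read 371, 424, 490.1 and 396, which gave 0.19 and -0.31. Ebp and Sc5d thus differed between genotypes in opposite directions. Dhcr7, which makes cholesterol from its dehydro precursor, read 1118, 1138, 1414 and 1032, with the knockout separate array high and the other 3 close together, and ratios of 0.03 and -0.46.

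The genes of the Srebf2 control loop split into steady and lower ones. Srebf2 read 1495, 1553, 1561 and 1452, and Scap, the escort of its product, read 838, 932, 897 and 881. The ratios of both lay between -0.10 and 0.15. The other measured Srebf2 probe set had ratios of 0.27 and 0.15.

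Insig1, the feedback inhibitor that SREBP-2 itself induces, read 1799, 1558, 2273 and 1515. The co-culture arrays were close to each other and below both separate arrays, and the knockout separate array was the highest. The ratios were -0.21 in wild type and -0.59 in knockout. Knockout over wild type was 0.34 in separate culture and -0.04 in co-culture.

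Stard4, a soluble carrier of cholesterol that SREBP-2 induces, read 397, 378, 438 and 291 on its brightest probe set, with ratios of -0.07 and -0.59. Its other probe sets read 267, 205, 300.1 and 227, and 188, 133, 147 and 114. On each of these both co-culture arrays lay below both separate arrays, with ratios of -0.38 and -0.40 and of -0.50 and -0.36. Stard4 was therefore lower in co-culture on all 3 probe sets in both genotypes, although its brightest one shows this clearly in knockout only.

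On the Nr1h side little could be measured. Abca1, which exports cholesterol to lipid-poor apolipoprotein, read 49.8, 65.3, 76.5 and 61.2, so only the knockout separate array was above the floor, and barely. Abcg1, which exports it to mature lipoprotein, read between 8.81 and 15.2, under the floor throughout. Nothing can be read about the exporters from these signals, because both lie at or under the floor.

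Nr1h3, the LXR alpha receptor, read 100.8, 91.3, 85.1 and 66.8. The ratio was -0.14 in wild type, and knockout co-culture was at least 1.12-fold lower than knockout separate culture, since that array lay under the floor. Srebf1, a classic LXR target that drives fatty acid synthesis, read 598, 528, 615 and 531. Both co-culture arrays were below both separate arrays, with ratios of -0.18 and -0.21, short of the threshold.

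Insig2, the constitutive partner of Insig1, read 452, 399, 531 and 449 on its brightest probe set. Its ratios of -0.18 and -0.24 were below 0, whereas its 2 other probe sets had ratios between -0.28 and 0.09. Insig2 therefore had no stable direction over its probe sets in knockout.

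**Figure D4:**
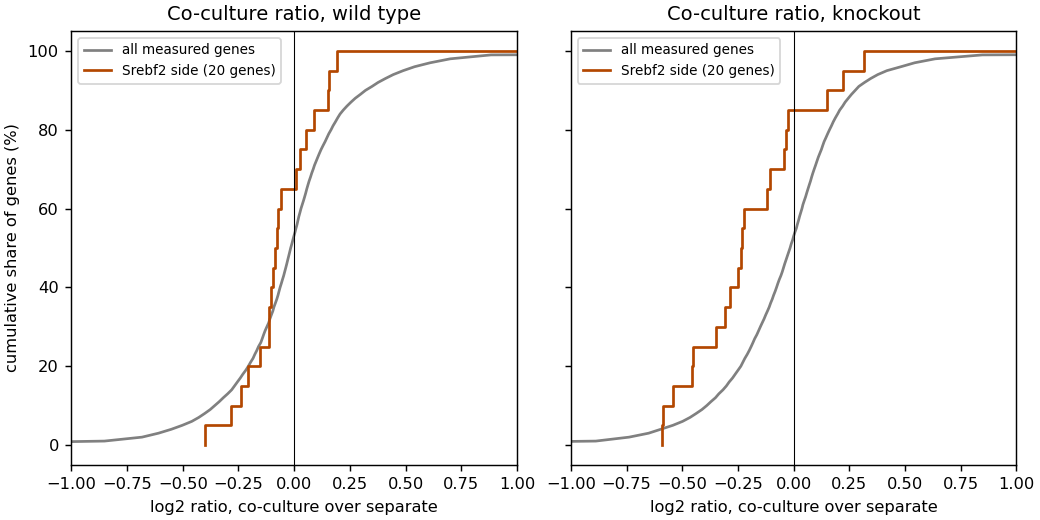
Share of genes (vertical axis, percent) at or below each log2 ratio of co-culture over separate culture (horizontal axis), for the 20 measured genes of the Srebf2 side and for all measured genes, in wild type (left) and knockout (right). The Srebf2 side has medians of -0.08 and -0.23 against -0.02 and -0.02.

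A test across both genotypes was possible with an additive model of culture and genotype, fitted with limma to 10637 genes. It has 1 residual degree of freedom, which is the difference between the genotypes' ratios. Limma draws the error of each gene from that difference towards a value shared by all genes, with 3.12 prior degrees of freedom. The model can thus test culture but not whether culture acts through Dectin-2. Of the 25 sterol genes tested 0 were lower and 0 higher at an adjusted p under 0.05, where 0.113% of all genes were lower and 0.31% higher. At an unadjusted p under 0.05 there were 2 lower (Cyp51 and Insig1) and 1 higher (Osbp2), while 17.1% of all genes passed.

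Osbp2 had a log2 difference of 1.68 (SE 0.20, limma, Benjamini-Hochberg adjusted p = 0.088), higher in co-culture in 2 of 2 genotypes. Cyp51 had -0.37 (SE 0.090, limma adjusted p = 0.17) and Insig1 -0.40 (SE 0.13, limma adjusted p = 0.26), both lower in 2 of 2. The Osbp2 call depends on the settings, since its limma adjusted p ranged from 0.00049 to 0.15 over 7 alternatives and was under 0.05 in 5 of them. Stard4, at -0.33 (SE 0.16, limma adjusted p = 0.39), did not pass either.

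The genotypes were also set side by side within each culture. In separate culture 15 of the 20 measured Srebf2-side genes read higher in knockout, with a median log2 ratio of knockout over wild type of 0.10, where 51.1% of all genes were above 0. In co-culture 8 of 20 did, with a median of -0.06, where 49.5% of all genes were above 0, and the synthesis enzymes split evenly, 8 above and 8 below. Neither difference was tested, as each rests on 1 array against 1.

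Of the 25 genes measured in separate culture 5 were higher in knockout past 0.32 (8.27% of all genes) and 0 were lower (5.61% of all). They were Mvd at 0.37, Sc5d at 0.40, Dhcr7 at 0.34, Insig1 at 0.34 and Osbp2 at 0.61. In co-culture 2 of 24 were lower in knockout (7.46% of all), Mvk at -0.75 and Stard4 at -0.38, and 0 were higher (6.15% of all). On the brightest probe set the 6 genes lower in knockout co-culture divide by array. For Mvd, Dhcr7 and Insig1 the knockout separate array was high, and for Mvk and Stard4 the knockout co-culture array was low. For Cyp51 the genotypes differed by no more than 0.07 in either culture. Other probe sets did not all repeat this. In co-culture the other Mvk probe set read 86.1 in wild type and 99.97 in knockout. The dimmer Stard4 probe sets read 205 and 133 in wild-type co-culture, and 227 and 114 in knockout co-culture. The dimmest Cyp51 probe set read 114 in wild-type and 197 in knockout separate culture.

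The knockout ratio minus the wild-type ratio had a median of -0.16 over the 20 Srebf2-side genes. It was below 0 for 13 of them, where 49.5% of all genes were below 0. The lowest were Mvk at -0.55, Mvd at -0.54, Stard4 at -0.52, Sc5d at -0.50 and Dhcr7 at -0.48, and Ebp was the highest at 0.38. For Osbp2 it was -0.74, with a higher separate array in knockout (159 against 104) and a similar co-culture array (395 against 431). The other Osbp2 probe set had the opposite order in separate culture, 33.4 in knockout against 62.0 in wild type, both under the floor. These differences use the same arrays as the ratios above and are no further evidence for them.

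**Figure D5:**
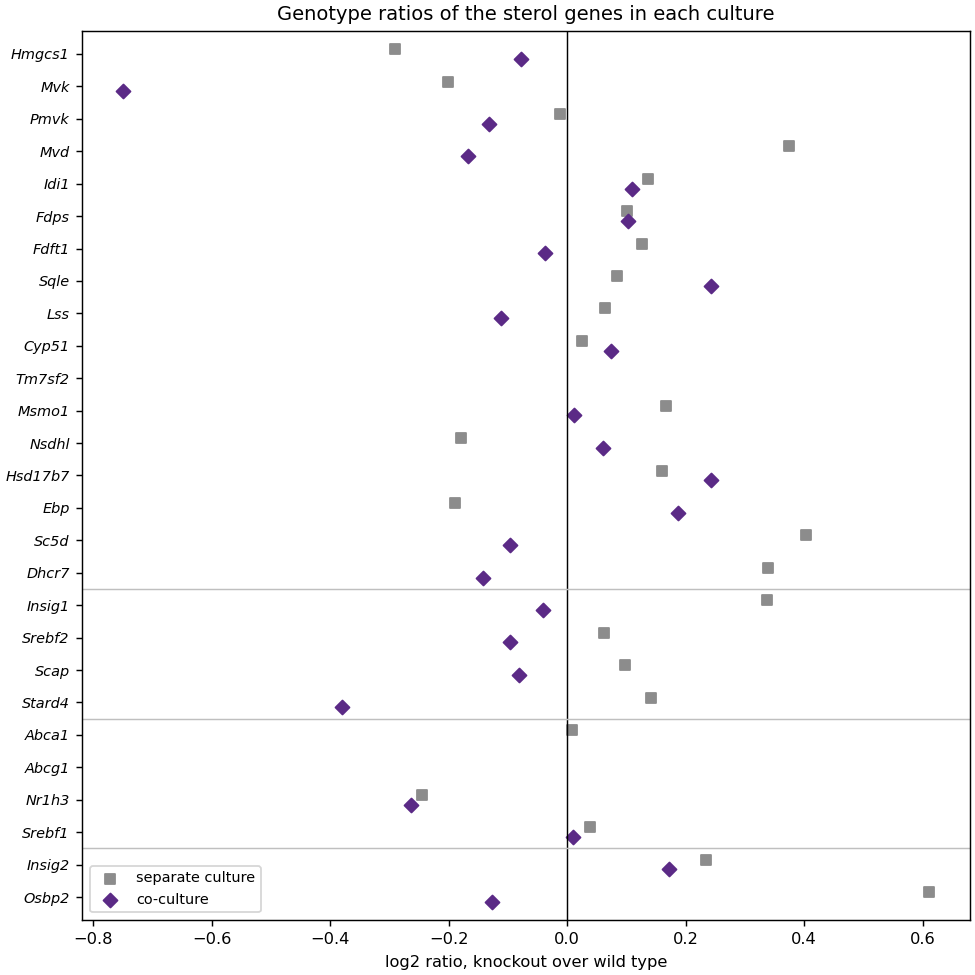
Log2 ratio of knockout over wild type (horizontal axis) for each sterol gene (vertical axis) in separate culture (squares) and in co-culture (diamonds), with no symbol where both arrays lay at or under the floor. In separate culture 15 of the 20 measured Srebf2-side genes lie above 0, and in co-culture 8 of 20 do.

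Genes around the pathway were taken from wider lists. Among genes of sterol uptake and traffic 22 were tested, of which 1 fell and 0 rose in co-culture at an adjusted p under 0.05. Of all genes 0.113% were called lower and 0.31% higher. At an unadjusted p under 0.05 there were 5 lower, where 10.6% of all genes were. In the same way 2 were higher, where 17.1% of all genes passed in either direction. The gene that fell was Osbpl6, a relative of Osbp2 in the oxysterol-binding protein family, which read 327, 137, 249.3 and 113. Both co-culture arrays were below both separate arrays, and its log2 difference was -1.20 (SE 0.094, limma adjusted p = 0.046). Its dimmer measured probe sets had ratios between -0.68 and -0.04 in wild type and between -1.09 and -0.65 in knockout. Most of these were bounds. With the median over probe sets the log2 difference of Osbpl6 was -0.48. Its call was kept in 4 of 7 alternatives, with limma adjusted p between 0.0021 and 0.23. Osbp2 and Osbpl6 thus went in opposite directions.

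In the same list Vldlr, a lipoprotein receptor, read 296, 186, 339 and 186 (log2 difference -0.77, SE 0.10, limma adjusted p = 0.092). Its other probe sets lay under the floor, except for readings of 92.9 and 114 in knockout separate culture. With the median over probe sets its knockout ratio was -0.14, and wild type lay at the floor. Lrp1, a large endocytic receptor, read 993, 1353, 1043 and 1538 (0.50, SE 0.093, limma adjusted p = 0.13). Osbpl3, another family member, read 844, 638, 768 and 605 (-0.37, SE 0.090, limma adjusted p = 0.17). None of these 3 passed the test, although on the brightest probe set of each both arrays of one culture lay beyond both of the other.

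Of 15 tested genes of fatty acid synthesis and desaturation, many of them Srebf1 targets, 0 passed in either direction. Of all genes 0.113% passed as lower and 0.31% as higher. At an unadjusted p under 0.05, 4 were lower and 0 higher, where 10.6% of all genes were lower. In wild type 13 of 15 had ratios below 0, against 53.3% of all genes, and in knockout 11 of 15, against 53% of all. Scd1, the stearoyl-CoA desaturase, read 1604, 1005, 1784 and 1082, so both co-culture arrays were clearly lower (log2 difference -0.70, SE 0.089, limma adjusted p = 0.088). Over the 7 alternatives its adjusted p ranged from 0.00016 to 0.15 and was under 0.05 in 3. Its other probe set had ratios of -0.49 and -0.65.

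Other LXR target genes gave 0 calls of 8 tested, where 0.113% of all genes were called lower and 0.31% higher. Lpl, lipoprotein lipase, read 839, 651, 709 and 558 (log2 difference -0.36, SE 0.089, limma adjusted p = 0.18). Its other probe set had ratios of -0.17 and -0.05. There were also 0 calls among 11 further genes of SREBP processing, 8 of the isoprenoid branch and 3 of cholesterol esters and oxysterols. At an unadjusted p under 0.05 these lists held 1, 1, 0 and 0 genes lower, with the LXR targets first, where 10.6% of all genes were lower. Each held 0 higher, where 17.1% of all genes passed in either direction.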

How the data were processed

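Probe set intensities on a linear scale were deposited, 1 value for each probe set on each array. The submitters' processing notes name MAS5 and Affymetrix Expression Console 1.4. Trimmed means, with 2% cut from each tail, were between 497.4 and 497.7, so every array had been scaled to the same level and total RNA per cell is not measured. cDNA was amplified from 20 ng of total RNA, per the labels' protocols. Detection calls were not used here.

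Groups came from the sample titles. Genes were named from the platform annotation, and the Entrez numbers of all 27 genes were found in the RefSeq table of GRCm38.p6 with 0 symbols differing. Signals were floored at 76.1 and log2-transformed without further scaling, and a gene was read from its brightest probe set. Limma 3.58.1 in R 4.3.3 fitted culture and genotype to genes above the floor in at least 1 array (prior degrees of freedom 3.12), with Benjamini-Hochberg adjustment over all of them. The fit was also run on simulated data. Their noise was drawn from a pool shared by all genes, so that run does not show how the test performs on these arrays. All listed genes are named. Of each wider list, up to 6 genes are named, those above the floor in all arrays whose log2 ratio passed 0.32 in the same direction in both genotypes. The genes and lists were chosen with earlier results of these data known. The promoter share among genes above the floor, and the alternatives for Osbpl6 and Scd1, were added after the values were seen. Alternatives covered the floor, the offset, the scaling, the probe set rule and the test's settings.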

Additional observations from a re-analysis of the deposited data

Results flagged for a closer look

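In 2 probe sets of the sterol genes the co-culture ratio had opposite signs in the genotypes and passed 0.32 in size in each. The dimmer of both Mvk probe sets had a log2 ratio of -0.51 in wild type and of at least 0.39 in knockout, where the separate array lay under the floor. The difference is at least 0.90, while the brightest Mvk probe set had 0.01 and -0.54. The dimmest Cyp51 probe set had 0.40 in wild type and -0.33 in knockout, a difference of -0.73, while the other Cyp51 probe sets were below 0 in both. Other probe sets with opposite signs had at least 1 ratio short of 0.32, among them those of Fdft1 (0.14 in wild type and -0.58 in knockout), Hsd17b7 (0.46 and -0.10) and Hmgcs1 (0.25 and -0.25). With 1 array a group, no such difference was tested.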

How the results depend on the processing

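No log2 ratio of a single gene that passed 0.32 turned its sign under the alternatives. Of all 358 single-gene ratios under alternatives, those short of 0.32 included, 343 moved by less than 0.23, the SD between genotypes. Many of them could not move, since a gene above the floor in all arrays keeps its ratio with no floor. Genes that an alternative left at the floor, such as Sc5d with the median over probe sets, were not counted there. Signs of ratios short of 0.32 did turn, for ratios near 0 with the scaling and for larger ones with the median over probe sets, as for Hsd17b7 in wild type (0.34), Hmgcs1 in knockout (-0.19) and Insig2 in knockout (0.09). Of 79 counts and medians 64 stayed within their tolerance. The knockout median of the Nr1h side was -0.32 with no floor and -0.26 with an offset of 16. With arrays set to a common median or quantile-normalized, 2 genes were higher in knockout, and with the common median 0 were lower in both genotypes. That scaling moved the share of lower genes among all past the threshold in knockout from 63.7% to 51.4%, with 5 sterol genes lower and 2 higher. With the median over a gene's probe sets, 2 were lower and 2 higher in wild type, 2 were lower in both genotypes, and the knockout medians of the enzymes and of the Srebf2 side were both -0.12. Limma called 1 sterol gene with the floor doubled, with the common median, with the median over probe sets and among genes of at least 4 times the floor, and 3 with an intensity trend. The cause of these shifts was not tested.

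The limma fit pairs the cultures within each genotype, and the labels carry no replicate number for any other pairing. Leaving out an array leaves no residual degree of freedom. Genes near the floor, Abca1, Abcg1, Nr1h3 and Tm7sf2, are limited by signal over background.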
